A study of Drosophila melanogaster with 6 samples.

Results

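Cuticle protein genes were read out in heads of adult male Drosophila melanogaster on 6 Affymetrix expression arrays. The genes were chosen by name, as all probe sets annotated to 1 gene whose current symbol starts with Cpr, Twdl, Ccp84, Lcp or Acp65. They came to 103 of the 18769 probe sets that are not controls, for 101 of 11953 named genes. By prefix they were 67 Cpr, 24 Twdl, 8 Lcp, 3 Ccp84 and 1 Acp65 probe sets. RefSeq lists 122 genes with these prefixes, of which 21, among them Lcp1 to Lcp4, have no probe set annotated to them alone and are outside the counts.

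Of the 6 arrays, 3 were from males of the strain cm Sxlfp7BO ct, whose X chromosome lacks all of Sxl (Sex-lethal) and carries the flanking marker alleles cm (carmine) and ct (cut). The other 3 were from wild-type Oregon-R males, brothers of the deletion males out of a single-pair cross of cm Sxlfp7BO ct/+ mothers with cm Sxlfp7BO ct/Y fathers, after the deletion had been backcrossed to Oregon-R. All flies were 2 to 5 days old, and whole heads went into TRIzol, so each value averages over epidermis, eye, brain, fat body and other tissues. The labels call the 3 arrays of a genotype biological replicates and do not say how many heads went into one. The deletion, cm and ct, and any other X variant linked to them, travel together in this cross and cannot be told apart.

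The insect cuticle is a layered matrix of chitin fibres and proteins that epidermal cells secrete at each moult and, in the adult, for some days after eclosion. The largest family of its structural proteins is CPR, whose members share a chitin-binding domain named after Rebers and Riddiford. The Lcp (larval cuticle protein), Acp65Aa (adult cuticle protein) and Ccp84A genes are CPR genes too, so that their prefixes reflect how they were found. The Tweedle (Twdl) genes encode a separate family of cuticle proteins, known for the squat body shape of a dominant TwdlD mutation. Many of these genes sit side by side in runs and are used at different stages or in different parts of the body, the corneal lens of the eye included.

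The authors deposited 1 linear intensity per probe set and array. Array medians ran from 14.3 to 14.8, and the lowest intensity on any array was 3.52. Sxl gave a measure of the signal left by an absent transcript. Its 3 probe sets lay between 3.99 and 6.26 on the deletion arrays and were at 88.8 or more on the wild-type arrays, so the array labels fit the genotypes. Of the markers chosen for the check of tissue, all 5 measured head neuron and eye genes were tested. All 5 genes of the male reproductive tract were at mean intensities of 5.92 or less. Of the 3 glia, 4 flight muscle, 2 gut and 1 yolk gene tested, none passed by genotype alone. Among these the glial nrv2 was lower (log2 fold change -0.24) and the yolk gene Yp3 higher (0.45) in deletion males, with groups apart. The glial repo (-0.16) and moody (0.02) had overlapping groups. The yolk genes Yp1 and Yp2 were too dim to be tested. In a fit of all probe sets they had -0.38 and 0.11, also with groups apart. With the replicate number as a block nrv2 passed (limma adjusted p = 0.0377). The 4 tested fat body genes were lower in deletion males, with summed intensities of 9762 to 12316 in deletion and 15232 to 19336 in wild-type males. Of them 3 passed the test without the block and 4 with it. The neuron and eye genes summed to 17237 to 17621 in deletion and 13091 to 15365 in wild-type males. That sum mostly follows the eye genes Arr2 and trp, which averaged 9704 and 4113 over the 6 arrays. Of the 5 genes only inaD passed without the block (log2 fold change 0.53, limma adjusted p = 0.0251). With the block trp and nSyb passed as well (limma adjusted p = 0.0217 and 0.0433). In inaD, trp (0.55) and Arr2 (0.12) all deletion values lay above all wild-type values. The neuron genes elav (0.07) and nSyb (0.30) had overlapping groups. The ratio of 3' to 5' signal of the eIF-4a control, a sign of RNA integrity, was 3.30 to 3.47 on deletion arrays and 3.55 to 4.08 on wild-type arrays, while the ratios of actin and GAPDH overlapped. The part of these differences in the results below was not tested, and in whole heads fewer cells of a type cannot be told apart from less RNA per cell.

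Few cuticle protein genes gave a high signal in these heads. A probe set was tested if its mean log2 value over the 6 arrays reached the 40th percentile of all probe sets, an intensity of 8.35. By that filter 59 of the 103 probe sets were tested (57.3%). Of the 59, only Cpr67Fa1 had a mean under the filter in deletion males alone, and Cpr62Ba and TwdlV in wild-type males alone. The mean of 88 members (85.4%) lay above the highest value of Sxl on the deletion arrays, against 79.4% of all probe sets. At the 60th percentile of the array, an intensity of 41.7, 18 members were left (17.5%).

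Cpr and Twdl probe sets differed in level. Similar shares of them, 59 of 67 (88.1%) and 21 of 24 (87.5%), lay above the highest value of Sxl on the deletion arrays. Of 67 Cpr probe sets, 41 passed the filter (61.2%), 16 passed the 60th percentile (23.9%), and 10 averaged over 100 (14.9%, against 28.1% of the array). Of 24 Twdl probe sets, 13 passed the filter (54.2%), 1 passed the 60th percentile (4.17%), and none averaged over 100. Of 8 Lcp probe sets 2 passed, and the means of 4 lay above the highest value of Sxl on the deletion arrays. Of 3 Ccp84 probe sets 2 passed, and the single Acp65 probe set passed. The members cover 7 of 17 RefSeq Lcp genes and 3 of 7 Ccp84 genes, against 66 of 71 Cpr and 24 of 26 Twdl genes. A probe set shared by Lcp65Ag1 and Lcp65Ag2, left out here because it matches more than 1 gene, averaged 99.2. Intensity also depends on the probes, so these counts describe probe sets and give no order of transcript amounts between genes.

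**Figure D1:**
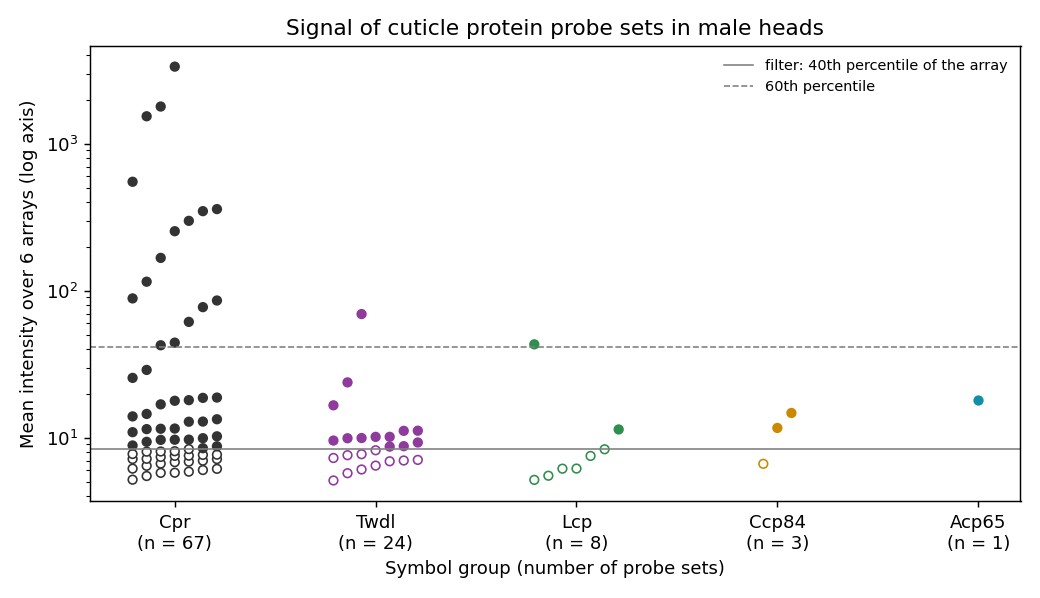
Mean intensity over the 6 arrays (log axis) of each of the 103 cuticle protein probe sets, by symbol group, with 1 point per probe set, filled where it was tested and open where it was not. The Cpr points spread from 5.19 to 3347, while the 24 Twdl points end at 69.4, and lines mark the 40th and 60th percentiles of the array.

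The brightest Cpr probe sets were those of Cpr65Au, Cpr72Ec and Cpr49Ae, the 3 members that averaged over 1000. Cpr72Ec, which encodes a protein of the corneal lens, had 1598, 2172 and 1797 in deletion males and 1726.5, 1939 and 1516 in wild-type males. Its groups overlapped, with a log2 fold change of 0.10 ± 0.12 (SE, n = 3 arrays each) and limma adjusted p = 0.755. Cpr66D, the other Cpr gene known from the lens, was near the filter, at 12.4, 11.2 and 10.2 in deletion males and 8.90, 9.16 and 9.50 in wild-type males (0.26 ± 0.09 SE, limma adjusted p = 0.192). Retinin, a lens protein of another family, had 6604 to 6873 in deletion and 6225 to 7126 in wild-type males, which overlapped.

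The next 4 in brightness were Cpr67B, Cpr47Ee, Cpr49Ag and Cpr62Bb. Cpr67B had 520.3, 548 and 486 in deletion males, all under the 565, 615 and 574 of wild-type males, but the log2 difference of -0.17 did not pass (limma adjusted p = 0.183). Cpr47Ee, Cpr49Ag and Cpr62Bb had log2 fold changes of -0.13, 0.38 and 0.10, with overlapping groups. For Cpr49Ag the spread lay between replicate numbers. It had 401, 302 and 454 in deletion males and 333, 179 and 419.5 in wild-type males (replicates 1, 2 and 3), the lowest in replicate 2 of both genotypes, and its value was higher on the deletion array of each number. It did not pass with the replicate number as a block either (limma adjusted p = 0.0957). Cpr100A had 280.4, 261 and 318 in deletion males, all above the 180.5, 239.8 and 245 of wild-type males (log2 fold change 0.38, limma adjusted p = 0.177, 0.0541 with the block).

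Between the genotypes, 2 of the 59 tested members passed an adjusted p of 0.05 in limma, TwdlG lower and Cpr73D higher in deletion males. Over the whole array 293 of 11261 probe sets passed, or 2.60% (1.23% higher, 1.38% lower), and 2 of 59 is near that share. At an unadjusted p of 0.05 it was 13 of 59, against 17.6% of the array. With array weights 4 of 59 were called, where the array had 5.08%, and at an adjusted p of 0.1 it was also 4, where the array had 6.07%. The median log2 fold change of the 59 was 0.09, against 0.00 for all tested probe sets. It was 0.04 without wild-type replicate 2 and 0.03 over all 103 probe sets without the filter. Of the 59, 40 had a positive value (38 of 60 after quantile normalization), as had 5782 of 11261. Array by array, 35, 38 and 39 of the 59 lay above their own mean in deletion males, and 28, 22 and 23 in wild-type males. The 44 probe sets under the filter had log2 fold changes from -0.35 (Cpr49Aa) to 0.18 in a fit without it, and limma called none of them.

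TwdlG showed the largest log2 fold change of the 59 tested probe sets. It had 44.3, 46.7 and 47.0 in deletion males, against 91.7, 88.5 and 98.4 in wild-type males. All deletion values lay well under all wild-type values, with little spread within either genotype. The means were 46.0 ± 1.48 in deletion and 92.9 ± 5.06 in wild-type males (SD, n = 3), a log2 fold change of -0.998 ± 0.07 (SE, limma adjusted p = 0.001). It was called in all 16 alternatives tried, with values from -1.03 to -0.81. TwdlG is an autosomal gene on 3R.

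No other Tweedle gene passed the test. The other 12 tested Twdl probe sets had log2 fold changes from -0.12 (TwdlW) to 0.17 (TwdlT). TwdlV, 2 protein-coding genes from TwdlG, had 8.83, 8.56 and 10.2 in deletion males and 8.63, 8.02 and 8.03 in wild-type males (0.14 ± 0.09 SE, limma adjusted p = 0.498). TwdlF, the third gene of that run, was not tested, at a mean of 6.47. TwdlD, the gene of the dominant body-shape mutation, was at 9.76, 10.4 and 10.2 in deletion and 9.53, 10.3 and 9.56 in wild-type males. TwdlV and TwdlD lay close to the filter. Among the 5 protein-coding genes on either side of TwdlG, 6 genes were tested with 7 probe sets, and 1 was called, flip (-0.49, limma adjusted p = 0.0361), 5 genes away. With the block Gel, 4 genes away on the other side, was called as well (-0.19, limma adjusted p = 0.0339).

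Cpr73D rose. It had 138, 142 and 131 in deletion males, against 88.6, 93.9 and 98.1 in wild-type males, so that the groups were well apart. The means were 137 ± 5.83 in deletion and 93.5 ± 4.74 in wild-type males (SD, n = 3), a log2 fold change of 0.55 ± 0.07 (SE, limma adjusted p = 0.00872). Without deletion replicate 2 its adjusted p was 0.0591, and in the other 15 alternatives it was called. Of its neighbours within 5 protein-coding genes, 6 genes were tested with 7 probe sets and none was called by limma. The nearest of them, CG13022, had a log2 value of 0.69 (limma adjusted p = 0.0938).

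Arrays with equal replicate numbers deviated together, and with the number as a block 833 probe sets (7.40%) and 7 of the 59 members were called, 5 higher and 2 lower (3.42% and 3.98% of the array). These included TwdlG and Cpr73D, and the other 5 were Cpr genes that missed the threshold without the block. The numbers are those of the labels, but the choice to block on them was made from these same values, so these p may be too favourable.

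Cpr11B lies on the X chromosome. It had 196, 170.4 and 223 in deletion males, all above the 131, 124 and 160.3 of wild-type males. The log2 fold change was 0.50 ± 0.06 (SE) with limma adjusted p = 0.00455 in the block fit and 0.0803 without it. Cpr11A, its neighbour in a run of 2 genes, had 19.9, 19.9 and 21.6 in deletion and 17.7, 17.6 and 15.3 in wild-type males, also apart but not called (log2 fold change 0.27, limma adjusted p = 0.179, 0.173 with the block). The genes lie 523 and 528 protein-coding genes from Sxl on the side of ct. That is outside the interval marked by cm and ct, which are 9 and 36 genes away. Whether X variants linked to the deletion reach that far was not tested. Of the 9 probe sets tested within 5 genes of Cpr11B, those other than Cpr11A had log2 values from -0.07 to 0.18.

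Of the remaining genes called with the block, 3 were autosomal and higher in deletion males. Cpr49Ae had 1787, 1669.8 and 1586 in deletion and 1548, 1276 and 1361 in wild-type males (log2 fold change 0.27, limma adjusted p = 0.02 with the block, 0.118 without). Cpr76Bc had 109, 90.8 and 95.6 in deletion and 84.5, 78.2 and 74.5 in wild-type males (0.31, limma adjusted p = 0.0404 with the block, 0.118 without). Cpr64Ad had 33.2, 32.4 and 32.8 in deletion and 24.8, 27.1 and 23.3 in wild-type males (0.38, limma adjusted p = 0.0482 with the block, 0.0588 without). In each of the 3 genes all deletion values lay above all wild-type values.

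Cpr65Au, the brightest member, was the 1 Cpr gene lower with the block. It had 3079.9, 2999.5 and 3339.8 in deletion males, against 3424, 3549.8 and 3690.0 in wild-type males. The groups did not overlap, and the size was small, a log2 fold change of -0.18 (limma adjusted p = 0.034 with the block, 0.119 without).

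**Figure D2:**
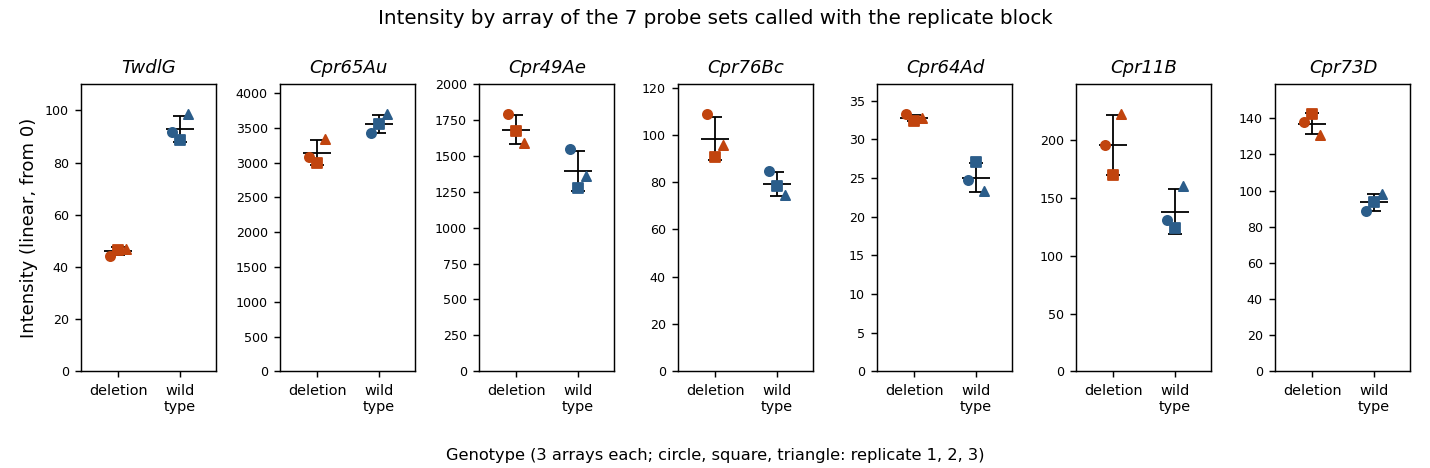
Intensity on each array (linear axis from 0) of the 7 probe sets called with the replicate block, deletion males left and wild-type males right, with 1 marker shape per replicate number and the mean ± SD in black. TwdlG and Cpr65Au are lower in deletion males, the other 5 are higher, and in none of the 7 do the groups overlap.

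Across the Cpr genes, small positive differences were common. Of the 41 tested Cpr probe sets 29 had a positive log2 fold change (median 0.10), 14 had all deletion values above all wild-type values, and 2 had all below. Over the whole array 24.0% of tested probe sets had groups that did not overlap, 12.1% higher and 12.0% lower. Within pairs of equal number, 19 of the 41 were higher on the deletion array of all 3 pairs and 5 lower in all 3, against 22.7% and 22.0% of all tested probe sets. After quantile normalization the positive values were 27 of 42. These are counts over genes that share arrays and tissue, and no test of the group was made. Of the 13 Twdl probe sets 1, TwdlG, had groups that did not overlap, and 2 were higher and 2 lower in all 3 pairs.

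The dim members held no call. Of the 38 tested members averaging under 20, limma called none with or without the block, and 4 had an unadjusted p under 0.05. The called shares of all probe sets in that range were 0.369% without and 1.06% with the block. Of 11 members between 20 and 100, 1 was called and 3 with the block, where 1.72% and 4.66% of 3544 probe sets were. Of 10 members over 100, 1 was called and 4 with the block, where 4.23% and 12.2% of 5275 probe sets were.

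**Figure D3:**
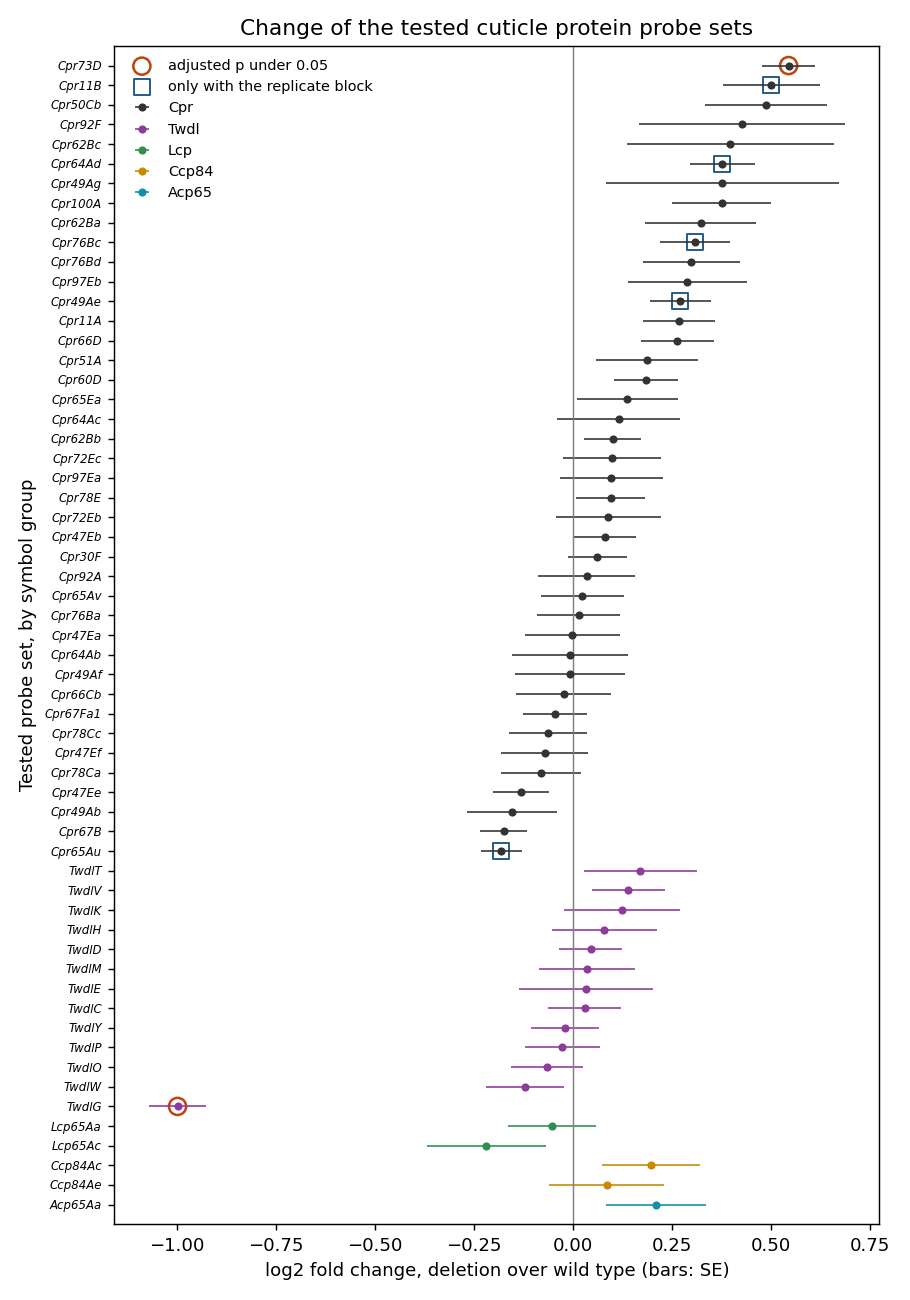
log2 fold change, deletion over wild type, with its SE for each of the 59 tested cuticle protein probe sets, ordered within symbol group. Circles mark the 2 called by limma, TwdlG at -0.998 and Cpr73D at 0.55, and squares the 5 called only in the fit with the replicate block.

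The larval and adult cuticle genes by name were mostly dim. Acp65Aa, the adult cuticle gene of the 65A run, had 16.6, 23.1 and 19.3 in deletion and 15.8, 18.1 and 16.3 in wild-type males (0.21 ± 0.13 SE, limma adjusted p = 0.444). Lcp65Aa had 43.6, 42.7 and 40.5 in deletion and 51.6, 41.8 and 39.0 in wild-type males on its brighter probe set, which overlapped, and its other probe set, with a mean of 8.35 and a mean log2 value just under the filter, was not tested. Lcp65Ac had 9.13, 12.5 and 9.74 in deletion and 12.2, 10.3 and 14.51 in wild-type males (-0.22 ± 0.15 SE, limma adjusted p = 0.517). The remaining 5 Lcp probe sets averaged between 5.17 and 7.52. Of the Ccp84A genes, which lie in the Antennapedia complex, Ccp84Ac had 14.8, 17.8 and 14.8 in deletion and 11.5, 15.1 and 14.4 in wild-type males (log2 fold change 0.20). Ccp84Ae had 12.6, 10.1 and 13.3 in deletion and 13.2, 11.5 and 9.23 in wild-type males. Neither Ccp84 gene was called, and in both the groups overlapped.

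Runs were defined as member genes at most 5 protein-coding genes apart in RefSeq. Of the 13 runs with at least 2 tested probe sets, 6 had only log2 fold changes above 0, 1 had only values below 0, and 6 held both signs. By chromosome, 25 of the 40 probe sets on 3L, 18 of 26 on 3R, 11 of 23 on 2R, 3 of 8 on X and 2 of 6 on 2L were tested. In the run from Lcp65Ag3 to Cpr65Az on 3L, with 18 genes and 12 probe sets, the 5 tested had log2 fold changes from -0.22 to 0.21. In the run from TwdlM to TwdlQ on 3R, with 13 genes and 12 probe sets, 6 were tested, with values from -0.06 to 0.12. The 3 Cpr62B genes were all positive, at 0.32 for Cpr62Ba, 0.10 for Cpr62Bb and 0.40 for Cpr62Bc, and none was called. Cpr62Bc had 59.6, 71.6 and 74.4 in deletion and 32.2, 59.4 and 71.4 in wild-type males, lowest in replicate 1 of both genotypes. In the 49A run Cpr49Ae had 0.27 while its neighbour Cpr49Af had -0.01, and in the 64A run Cpr64Ad had 0.38 while Cpr64Ac and Cpr64Ab had 0.12 and -0.01. The first neighbour of Cpr64Ad on its other side is the insulin-binding gene ImpL2, which fell (-0.54, limma adjusted p = 0.0206).

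**Figure D4:**
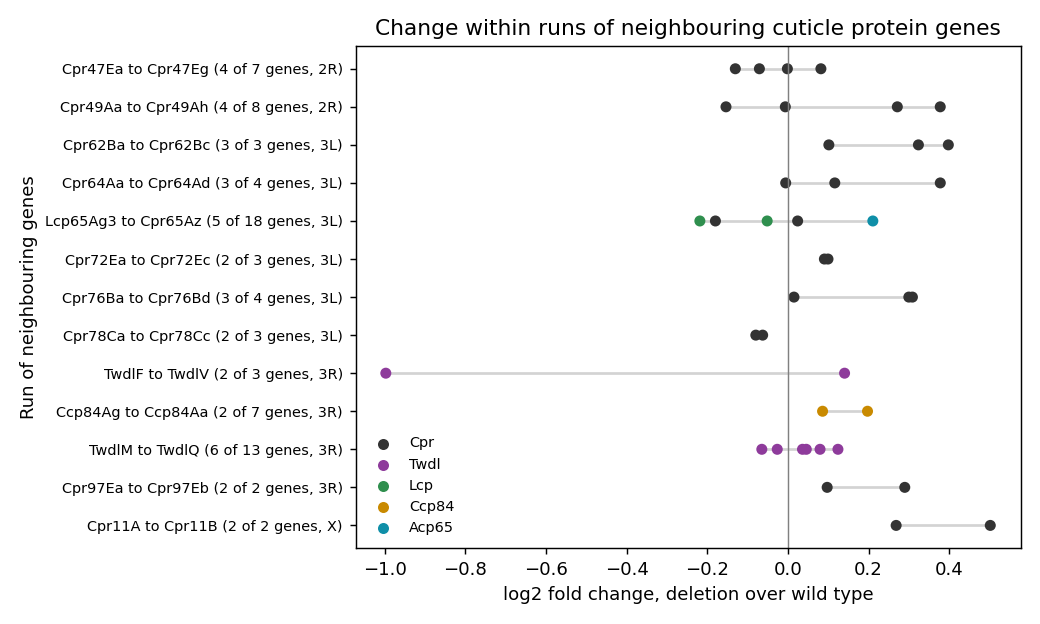
log2 fold change, deletion over wild type, of each tested probe set in the 13 runs of neighbouring cuticle protein genes with at least 2 tested probe sets, 1 row per run, coloured by symbol group. TwdlG at -0.998 stands far from TwdlV of its own run, and the 3 Cpr62B values are all above 0.

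Genes that make, modify or tan cuticle were taken from 6 lists besides the members. Of 82 genes 71 had a probe set of their own and 54 were tested, with 62 probe sets. Limma called 2 of the 62, verm higher and yellow-h lower in deletion males, where the array had 2.60%, and the median log2 fold change was 0.04. With the replicate block 11 were called, 7 higher and 4 lower, where the array had 7.40%.

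Chitin genes held 26 of these probe sets, with 1 called and 6 with the block, where the array had 2.60% and 7.40%. At an unadjusted p of 0.05 it was 10 of 26, where the array had 17.6%. The chitin deacetylase verm had 158, 153.9 and 152 in deletion males, against 125, 121 and 128 in wild-type males. The groups were apart, and it rose by a log2 fold change of 0.31 (limma adjusted p = 0.0342). It lost the call without the intensity trend (limma adjusted p = 0.0578) and without any single array except wild-type replicate 1. Of the other tested deacetylases, serp, Cda4 and Cda5 had log2 fold changes of 0.22, 0.30 and 0.38, each with all deletion values above all wild-type values, while Cda9 had -0.27 with overlapping groups. None of these 4 was called. With the block Cht2 (0.55), Cht6 (0.51), Gfat1 (0.49) and Idgf3 (0.25) were higher and Idgf4 (-0.22) lower in limma, but the other probe sets of Cht6, Gfat1 and Idgf3 had 0.05, 0.07 and 0.05 and were not called. Cht2 and Cht6 encode chitinases, Gfat1 the first enzyme towards the chitin precursor, and the Idgf genes chitinase-like growth factors. The chitin synthase kkv was near the filter, at 9.02, 9.88 and 10.6 in deletion and 8.12, 11.6 and 6.80 in wild-type males.

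Tanning and pigmentation genes were tested with 15 probe sets, of which 1 was called with and without the block. That was yellow-h, of the yellow family of secreted proteins. It had 231, 207 and 217 in deletion males, against 281, 308 and 289 in wild-type males. The groups were apart, with a fall of 0.42 on the log2 scale (limma adjusted p = 0.0172). Without deletion replicate 2 or 3 or wild-type replicate 2 or 3 its limma adjusted p was 0.0919, 0.0951, 0.065 and 0.0528. The tyrosine hydroxylase ple (-0.28), the laccase stw (-0.18) and yellow-f2 (-0.21) had the next smallest p and were not called. For ple the deletion values of 17.4, 15.05 and 16.5 all lay under the wild-type values of 19.9, 18.9 and 21.0. Ddc, ebony (e) and tan (t) had -0.06, 0.04 and 0.13.

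Other structural and chitin-binding proteins were tested with 14 probe sets, and limma called none without the block (3 at an unadjusted p of 0.05). With the block Vajk1 and obst-A were. Vajk1, of a small family of cuticle proteins, had 26.9, 26.7 and 22.0 in deletion and 13.3, 17.0 and 17.7 in wild-type males (0.63, limma adjusted p = 0.0372 with the block, 0.0524 without). The chitin-binding obst-A had 97.8, 94.4 and 86.9 in deletion and 116, 114 and 113 in wild-type males (-0.29, limma adjusted p = 0.0377 with the block, 0.0654 without). In both genes the groups were apart. Gasp, another chitin-binding protein gene, had a log2 fold change of 0.19 and obst-E 0.20 and -0.05 on its 2 probe sets, none of them called.

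Zona pellucida proteins of the apical matrix were tested with 5 probe sets. Limma called none without the block (2 at an unadjusted p of 0.05), and pio (0.28) and tyn (-0.36) were with it, at limma adjusted p of 0.0332 and 0.0494, while the brighter pio probe set had 0.09. The remaining 2, mey and neo, had -0.13 and 0.04. Of the CPR genes with other symbols Pcp alone was tested (0.04), near the filter, and of the hormone genes CCAP alone (0.08). Neither was called. Of 8 probe sets of tracheal and epidermal markers, limma called none with or without the block (1 at an unadjusted p of 0.05). Their summed intensity of 219 to 255 in deletion males overlapped the 205 to 257 of wild-type males. That sum leans on 1 grh probe set, which averaged 120, while the next brightest, of vvl, averaged 21.9. The 2 vvl probe sets had groups apart in opposite directions (0.20 and -0.25).

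**Figure D5:**
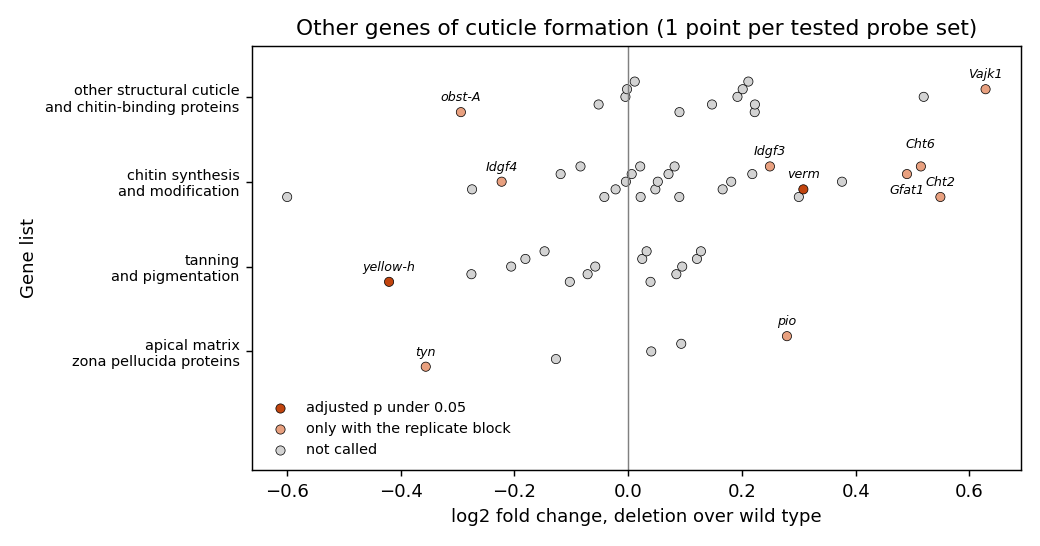
log2 fold change, deletion over wild type, of each tested probe set in 4 lists of genes that build, modify or tan cuticle. Dark points mark verm at 0.31 and yellow-h at -0.42, the 2 called by limma, and light red points those called only with the replicate block.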

How the data were processed

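The authors deposited 1 linear intensity per probe set and array, and the summarisation, background correction and normalization are not given in the sources used here. Array medians differed by 0.05 on the log2 scale, so no further normalization was applied. Precision rests on the number of arrays, since intensities carry no read depth.

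The test used limma 3.58.1 (R 4.3.3) on log2(intensity + 1), with genotype as the only term and eBayes with an intensity trend. P-values were two-sided and adjusted by Benjamini-Hochberg over the 11261 probe sets at or above the 40th percentile, with a threshold of 0.05, and the script was tested on simulated data. Fold changes are deletion over wild type. Of 18952 probe sets 183 were controls. Gene names came from GEO's platform annotation, and all 103 members were matched by Entrez identifier to RefSeq (Release 6 plus ISO1 MT), used for names and gene order. No sequences are printed.

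Deviations from the genotype mean correlated at 0.216, 0.248 and 0.114 for arrays with equal replicate number, and from -0.223 to 0.0573 for different numbers. Within a genotype the deviations cancel, so values above 0 for equal numbers push those for different numbers down. Limma was therefore also fitted with the replicate number as a blocking term, and the value of that fit is given where it changes a call. What the numbers stand for is not in the labels.

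Members and lists were chosen with earlier results of these data known. Genes were named by rule: called members, with and without the block; the 4 smallest p in each symbol group; the 10 brightest members; and, in each cuticle formation list, the called genes and the 4 smallest p. Others, such as Cpr66D, Cpr11A, Cpr62Bc, TwdlD, serp, Cda5, Cda9, Idgf3, Idgf4, Gfat1, kkv and retinin, were named after their values were seen. Alternatives covered the filter, pseudocount, normalization, variance model, array weights, replicate block, threshold and the omission of each array.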

Additional observations from a re-analysis of the deposited data

How the results depend on the processing

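Direction held for every called member in all alternatives in which it was tested. The 2 called members became 4 with array weights, 7 with the replicate block and 4 at a threshold of 0.1, and ranged from 1 to 3 with single arrays left out, the lowest without deletion replicate 2. The cuticle formation genes called went from 2 to 1 without the intensity trend, 4 with array weights, 11 with the replicate block and 8 at a threshold of 0.1, and ranged from 0 to 2 with single arrays left out, at 0 without deletion replicate 2, deletion replicate 3 or wild-type replicate 2. Over the whole array the 293 calls became 128 without the intensity trend, 572 with array weights, 833 with the replicate block and 683 at a threshold of 0.1, and ranged from 54 to 432 (0.480% to 3.84%) with single arrays left out. Of the 59 members above the filter 18 were left at the 60th percentile, fewer because the bar is higher. The median log2 fold change of the tested members, 0.086, was 0.035 without the filter, where more dim probe sets enter, and ranged from 0.043 (without wild-type replicate 2) to 0.097 with single arrays left out. Of the values of single named genes under other settings, 575 stayed on the same side of the threshold, 20 passed it in addition and 11 no longer passed it. The cause of these changes was not tested. The replicate block changed no call from passing to not passing among the named genes.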

Other observations

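Several cuticle genes are measured by 6 probe sets that match more than 1 gene, and these were kept out of the counts. The probe set shared by Lcp65Ag1 and Lcp65Ag2 had intensities of 103, 96.5 and 119 in deletion males and 99.9, 73.9 and 102 in wild-type males, with overlapping groups (log2 fold change 0.21, limma adjusted p = 0.483). The probe set shared by Ccp84Aa and Ccp84Ab had 6.92, 9.01 and 7.55 in deletion males and 7.01, 6.72 and 25.1 in wild-type males, so that wild-type replicate 3 alone stood above the rest. The brighter of the probe sets shared by Cpr57A and the odorant-binding protein gene Obp57d had 198, 209 and 219 in deletion males, all above the 177, 187 and 178 of wild-type males, without a call (0.20, limma adjusted p = 0.129). The share of each gene in these signals is not known.

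Some cuticle genes had a low value in wild-type replicate 1. Cpr92F had 12.9, 13.7 and 19.3 in deletion males and 6.84, 13.8 and 13.7 in wild-type males. Vajk3 had 65.1, 61.2 and 94.8 in deletion males and 29.8, 64.4 and 65.2 in wild-type males. The deacetylase gene Cda5 had 54.6, 51.6 and 50.6 in deletion males and 29.9, 46.5 and 46.0 in wild-type males. These genes were chosen after their values were seen, none was called with limma, and no cause was tested.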
